A study of Mus musculus with 24 samples.

Results

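The T helper lineage transcription factors are the DNA-binding proteins that set which kind of helper a CD4 T cell becomes, and 8 of them were followed here: Gata3, Tbx21, Eomes, Bcl6, Rora, Runx1, Runx3 and Zbtb7b. Their probes were taken by symbol from the deposited, non-normalized table of Illumina MouseRef-8 v2 arrays, which gave 8 probes of 7 genes among 25697 probes of 17871 genes. The eighth gene, Zbtb7b, is listed there under its older symbol Zfp67 and was matched by RefSeq accession, which makes 9 probes of 8 genes. A probe was kept when its detection p, the deposited p-value of its signal against the negative control beads of the same array, was at most 0.02 on at least 1 array. That filter kept 14246 probes of 10418 genes, among them 1 probe each of 6 members, while Runx3, Zbtb7b and the second Rora probe did not pass it.

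GATA3 drives the Th2 program and acts on the locus of the Th2 cytokines, whereas T-bet, the product of Tbx21, drives the Th1 program and interferon gamma, with the related T-box factor Eomes beside it. BCL6 is the repressor that defines follicular helper cells, and ROR alpha, from Rora, works with its relative ROR gamma t in Th17 cells. ThPOK, from Zbtb7b, and RUNX3 oppose each other when thymocytes choose between the CD4 and the CD8 fate, and RUNX1 acts throughout T cell development.

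The 24 arrays formed 8 groups of 3, replicates A, B and C, from 4 cell states in WT mice and in mice whose T cells lack BAF180 (gene Pbrm1), a subunit of the PBAF chromatin remodelling complex. The labels give both genotypes as Balb/c, the study's methods a B6-129 mixed background before the cross to CD4-Cre, and the mice were 4 to 6 weeks old. Resting naïve CD4+ cells were isolated from spleen and lymph node with a commercial kit that selects naïve CD4 T cells, to a stated purity of 95%, and stimulated naïve cells had 24 h on anti-CD3 and anti-CD28. Resting Th2 cells were grown from naïve cells under IL-4 at 10 ng/ml and anti-IFN-gamma at 10 µg/ml. Their stimulus was anti-CD3 at 1 µg/ml with anti-CD28 at 2 µg/ml. IL-2 at 100 U/ml came in at 24 h, and expansion in it began on day 3. Stimulated Th2 cells were resting Th2 cells given 50 ng/ml PMA and 500 ng/ml ionomycin for 1.5 h. The authors date the deletion by this Cre to late double-negative thymocytes and allow that a need for BAF180 before then may be missed. The stimulated naïve and the Th2 groups differ from resting cells in culture time as well as in stimulus, so these cannot be told apart. The arrays detected between 8047 and 10689 probes, with a median of 9485.5, and 3 arrays per group limit the precision of each level.

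All levels below are background-corrected, quantile-normalized log2 intensities, in which a level near 4 is background, and each difference is a limma contrast adjusted over the 14246 kept probes. The Pbrm1 probe ILMN_2732190 was read first, as a check of the genotype labels. In resting Th2 cells it was at 9.0 ± 0.10 (SD, n = 3) in WT and 7.14 ± 0.10 (SD, n = 3) in BAF180-deficient cells. It was lower in the deficient cells in each of the 4 states with no overlap between the groups: the difference was -1.01 (SE 0.23, adjusted p = 0.121) in resting naïve, -1.63 (adjusted p = 0.00746) in stimulated naïve, -1.86 (adjusted p = 0.00101) in resting Th2 and -1.42 (adjusted p = 0.0141) in stimulated Th2 cells. Pbrm1 was called in all 4 states by 4 criteria adapted from the study's methods, described with the genotype results. In resting naïve cells the call was lost without BAF180-deficient replicate B (-0.89, adjusted p = 0.326) and with normalization within the cell state (-0.95, adjusted p = 0.463). With only the arrays of the groups compared, the adjusted p was 1 in resting naïve, 1 in stimulated naïve and 0.746 in stimulated Th2 cells.

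T cell markers were present throughout: 9 of 9 listed genes were detected on each of the 24 arrays, with summed normalized intensities from 7690 to 11100 in stimulated naïve cells and from 13800 to 20400 on the other 18 arrays. Thy1 had the highest group mean in 5 of the 8 groups, Cd3d in stimulated naïve cells of both genotypes and Cd3g in resting naïve WT cells. The Cd4 probe itself was dim, with group means between 4.91 and 5.65. The resting naïve arrays also carried markers of other cell types. Of 7 myeloid markers 6 were kept (Itgam was not), and all 6 were detected on each resting naïve array. Their summed intensity was 1580, 2160 and 4870 in WT replicates A, B and C and 1760, 2280 and 2270 in BAF180-deficient ones. Fcer1g was the brightest on replicate B and Lyz2 on replicates A and C of both genotypes. On the other 18 arrays it lay between 26.5 and 65.2, and 0 to 3 of these genes were detected. Of 8 B cell markers 7 were kept (Pax5 was not). Their sum was 6340, 4850 and 6960 in resting naïve WT replicates A, B and C and 5950, 8110 and 7480 in BAF180-deficient ones, with Cd74 the brightest, and it was between 161 and 1500 elsewhere. The B cell gene Ms4a1 stayed near background even in resting naïve cells, at 4.30 in WT and 4.75 in BAF180-deficient cells.

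Of 8 NK cell markers 6 were kept (Ncr1 and Klra8 were not), and their sum ranged from 441 to 716 on the resting naïve arrays and from 53.9 to 688 on the others, with Nkg7 the brightest. Of 5 dendritic cell markers only Siglech and Zbtb46 were kept, with sums of 115 to 193 on resting naïve arrays, where Siglech was the brighter, and 6.34 to 19.7 on the others. Of 5 basophil and mast cell markers only Cpa3 was kept, at 3.33 to 20.2. Cd8b1 was detected on all 24 arrays, whereas the Cd8a probe did not pass the filter. Its intensity in WT replicates A, B and C was 285, 346 and 485 in resting naïve, 197, 163 and 269 in stimulated naïve, 215, 187 and 324 in resting Th2 and 149, 169 and 341 in stimulated Th2 cells. In BAF180-deficient cells, in the same order, it was 268, 273 and 474, then 79.2, 128 and 139, then 72.1, 79.5 and 246, and then 85.0, 71.0 and 275. Replicate C was thus the highest in each of the 8 groups. Of 9 regulatory T cell markers 8 were kept and all 8 were detected on every array, with sums from 1340 to 3490. Tnfrsf18 had the highest group mean in all groups but resting naïve BAF180-deficient cells, where Foxp3 was at 9.27 and Tnfrsf18 at 9.18. All 6 memory or activation markers were kept. The brightest was Cd69, with its highest group mean, 11.87, in resting naïve WT cells, except in resting Th2 cells, where it was S100a6. Of the naïve T cell markers reported here, Ccr7, Lef1, Tcf7, Il7r and Klf2 had their highest group means in resting naïve cells, at 7.04, 7.01, 8.24, 10.20 and 11, with Il7r nearly as high in resting Th2 WT cells (10.18). In RNA from mixed cells, fewer cells of a type and less RNA per cell cannot be told apart.

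**Figure D1:**
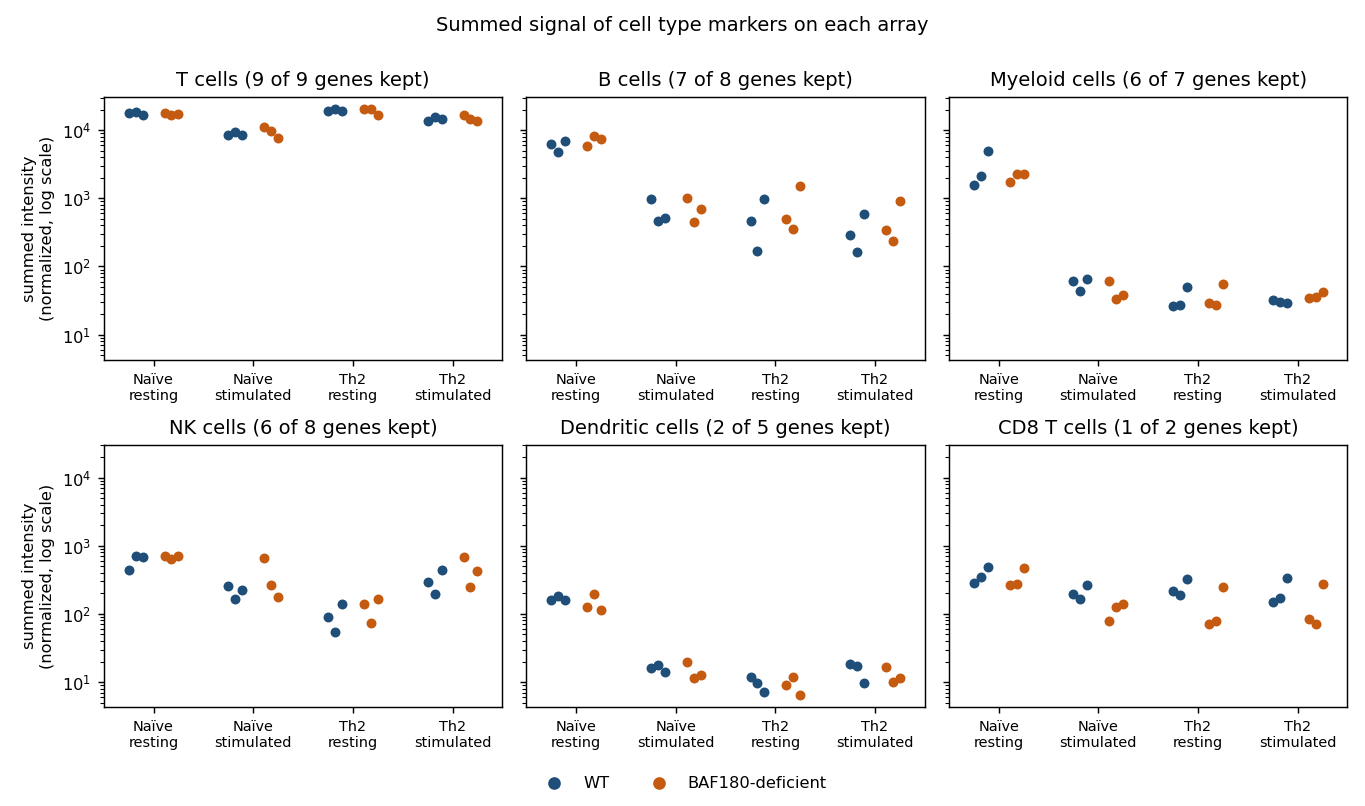
Summed normalized intensity (log scale) of the kept markers of 6 cell types on each array, by cell state, with WT in blue and BAF180-deficient in orange. Myeloid sums lie between 1580 and 4870 on the resting naïve arrays and between 26.5 and 65.2 on the others.

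The first question was how the factors' levels differ between the cell states. A difference between states was called at an adjusted p below 0.05. In WT cells, stimulation of naïve cells changed 5 of the 6 kept members, with Gata3 and Tbx21 higher and Bcl6, Rora and Runx1 lower, while 43.6% of all kept probes were called. Between resting naïve and resting Th2 cells 3 members were called (34.4% of all probes), with Gata3 higher and Bcl6 and Rora lower in Th2 cells. Stimulation of Th2 cells raised 3 members, Gata3, Tbx21 and Bcl6 (27.3% of all probes). From stimulated naïve to resting Th2 cells 4 were called (22.3% of all probes), from stimulated naïve to stimulated Th2 cells 2 (20.1%), and from resting naïve to stimulated Th2 cells 4 (48.5%). The median difference of the 6 members in the first 3 of these comparisons was -0.44, -0.09 and 0.57, beside 0.013, 0.03 and -0.0018 over all kept probes.

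The same comparisons in BAF180-deficient cells gave 4 members called for stimulation of naïve cells (41.6% of all probes), 4 between resting naïve and resting Th2 cells (34.7%) and 3 for stimulation of Th2 cells (25.8%). They gave 4 from stimulated naïve to resting Th2 cells (20.5%), 2 from stimulated naïve to stimulated Th2 cells (20.5%) and 6 from resting naïve to stimulated Th2 cells (46.3%). Eomes is among the 4 between resting naïve and resting Th2 cells and among these 6, although it was detected on 1 of the arrays compared and its lower bounds, given with that gene, leave no fold. Leaving out 1 array at a time moved the first of these counts between 3 and 6 members. The arrays whose removal ended a member's call are named with that gene.

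**Figure D2:**
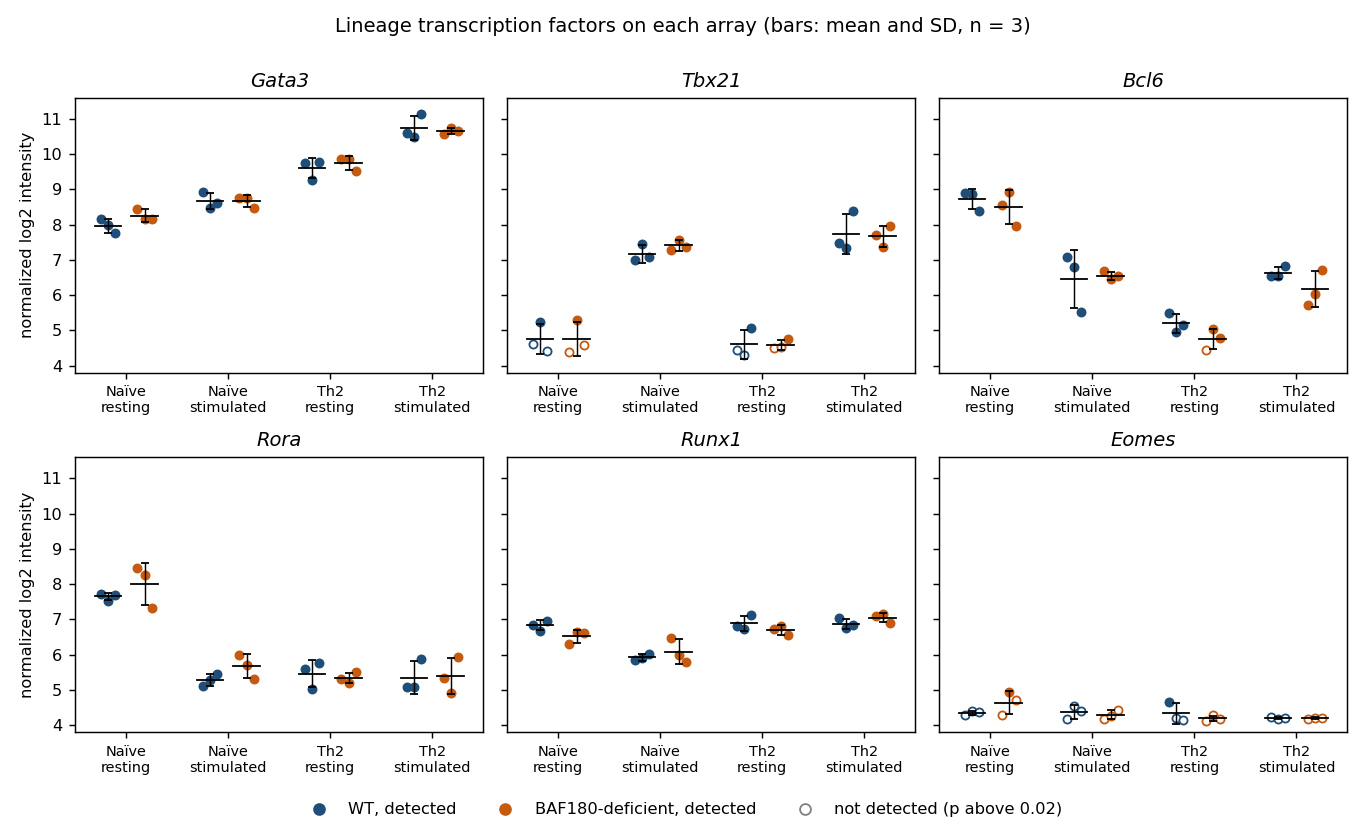
Normalized log2 intensity of 6 lineage factors on each array by cell state, WT in blue and BAF180-deficient in orange, with open circles for arrays with a detection p above 0.02 and bars for the mean and SD of 3 arrays. Mean Gata3 runs from 7.97 in resting naïve to 10.74 in stimulated Th2 WT cells, while Eomes lies between 4.19 and 4.64 in all groups.

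Gata3, the Th2 master factor, was present in all 4 states and brightest in stimulated Th2 cells (probe ILMN_1248843). On the log2 scale it read 8.16, 8.0 and 7.77 in WT replicates A, B and C of resting naïve cells and 8.45, 8.15 and 8.15 in the BAF180-deficient ones. After stimulation of naïve cells the levels were 8.92, 8.48 and 8.61 in WT and 8.76, 8.76 and 8.46 in BAF180-deficient cells. Each stimulated naïve array was above every resting naïve array of its genotype. Resting Th2 cells had 9.75, 9.27 and 9.77 in WT and 9.86, 9.87 and 9.53 in BAF180-deficient cells. Stimulated Th2 cells had 10.61, 10.49 and 11.13 in WT and 10.57, 10.73 and 10.65 in BAF180-deficient cells. In WT cells the states followed each other without overlap: resting naïve below stimulated naïve, then resting Th2, and stimulated Th2 on top.

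The WT group means of Gata3 in that order were 7.97 ± 0.20, 8.67 ± 0.23, 9.60 ± 0.28 and 10.74 ± 0.34 (SD, n = 3 each). Every step between neighbours was called. It rose by 0.69 (SE 0.18, adjusted p = 0.00342) on stimulation of naïve cells, was 0.93 higher in resting Th2 than in stimulated naïve cells (adjusted p = 0.000653) and rose by 1.15 (adjusted p = 5.12e-05) on stimulation of Th2 cells. Resting Th2 cells were 3.08-fold above resting naïve cells (adjusted p = 5.98e-07) and stimulated Th2 cells 6.81-fold (adjusted p = 1.1e-10). By the 4 criteria used for the genotype differences, which ask for a Z-ratio beyond 1.5, the 0.69 step would not be called (Z-ratio 0.74). The BAF180-deficient means were 8.25 ± 0.18, 8.66 ± 0.17, 9.75 ± 0.19 and 10.65 ± 0.08 (SD, n = 3 each). Their lower pair of states was not separated by the test, at 0.41 (adjusted p = 0.0748). It was called with Z-score normalization (0.55, adjusted p = 0.00612) and without resting naïve BAF180-deficient replicate A (0.51, adjusted p = 0.0499). The test of whether this step differed between genotypes gave -0.29 (limma adjusted p = 1). The steps above it were called, at 1.09 (adjusted p = 0.000142) and 0.90 (adjusted p = 0.000763), the latter not by the 4 criteria. Among genes whose group means span at least 1 log2 unit, those most like Gata3 over the 24 arrays were Il24 (r = 0.965), Cyp11a1 (r = 0.958) and Ndrg1 (r = 0.957).

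Tbx21, which encodes the Th1 factor T-bet, was near background in both resting states and rose on stimulation in naïve and in Th2 cells alike (probe ILMN_2762983). Its log2 level was 4.62, 5.23 and 4.41 in resting naïve WT replicates A, B and C and 4.38, 5.29 and 4.57 in BAF180-deficient ones, and only replicate B was detected in either genotype. Stimulated naïve cells had 6.99, 7.45 and 7.08 in WT and 7.28, 7.57 and 7.37 in BAF180-deficient cells. All 6 stimulated naïve arrays were above all 6 resting naïve arrays. In resting Th2 cells it was 4.43, 4.31 and 5.06 in WT and 4.49, 4.53 and 4.74 in BAF180-deficient cells, where only replicate C was detected. Stimulated Th2 cells had 7.47, 7.34 and 8.38 in WT and 7.70, 7.36 and 7.95 in BAF180-deficient cells. Replicate C was the highest of its group in the Th2 states of both genotypes, as Cd8b1 and the B cell marker sum were on the same arrays. The NK cell marker sum was 53.9 to 167 in resting and 198 to 688 in stimulated Th2 cells, and thus higher in the state where Tbx21 was higher. Of that list Nkg7 was higher on stimulation (5.96 and 8.04 in WT cells), as was Il2rb (5.1 and 5.66). Klrd1 was at 4.99 and 4.62 in WT and at 4.54 and 4.56 in BAF180-deficient cells. Klrb1c, Klrk1 and Klre1 were detected on no Th2 array. In naïve cells, where Tbx21 rose on stimulation, the NK cell sum was 441 to 716 at rest and 164 to 655 after it. The part of CD8, B and NK cells was not tested.

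The stimulated naïve WT mean of Tbx21, 7.17 ± 0.25 (SD, n = 3), was 2.42 above the resting one of 4.76 ± 0.43 (SE 0.28, adjusted p = 5.84e-07). The stimulated Th2 WT mean, 7.73 ± 0.57 (SD, n = 3), was 3.13 above the resting one of 4.60 ± 0.41 (adjusted p = 4.18e-08). In BAF180-deficient cells these rises were 2.66 (adjusted p = 1.72e-07) and 3.08 (adjusted p = 7.28e-08). The resting groups were detected on 1 of 3 arrays each, so lower bounds were taken with every undetected array raised to the lowest level detected on it. By these bounds the rise was at least 4.59-fold in naïve and 7.83-fold in Th2 WT cells, and at least 5.39-fold and 8.15-fold in BAF180-deficient cells. The order in both genotypes was a low pair, resting Th2 and resting naïve cells, and a high pair, stimulated naïve and stimulated Th2 cells. Within the low pair the difference was -0.16 in WT (adjusted p = 0.714) and -0.16 in BAF180-deficient cells (adjusted p = 0.706), and it changed sign without replicate B of resting naïve cells (0.082 in WT, 0.11 in BAF180-deficient cells). Within the high pair it was 0.56 in WT (adjusted p = 0.186; 0.23 without stimulated Th2 WT replicate C) and 0.26 in BAF180-deficient cells (adjusted p = 0.611; 0.13 without stimulated Th2 BAF180-deficient replicate C and 0.42 without B). Between the pairs, resting Th2 cells were below stimulated naïve cells by -2.57 in WT (adjusted p = 1.13e-06) and -2.82 in BAF180-deficient cells (adjusted p = 3.8e-07). By the same bounds they were at least 5.32-fold lower in WT and 6.78-fold lower in BAF180-deficient cells. The genes most like Tbx21 over the 24 arrays were Crabp2 (r = 0.976), Bdh2 (r = 0.963) and Sema7a (r = 0.961).

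Bcl6, the factor of follicular helper cells, was highest in resting naïve cells and lowest in resting Th2 cells (probe ILMN_1230353). Resting naïve cells read 8.90, 8.87 and 8.38 on the log2 scale in WT replicates A, B and C and 8.55, 8.93 and 7.97 in BAF180-deficient ones. On stimulation of naïve cells the WT arrays spread to 7.07, 6.79 and 5.51, while the BAF180-deficient arrays were at 6.67, 6.45 and 6.54. WT replicate C was the lowest of these 6 arrays, and all 6 were below every resting naïve array. In resting Th2 cells Bcl6 was at 5.48, 4.96 and 5.14 in WT and at 4.44, 5.03 and 4.78 in BAF180-deficient cells, of which replicate A was not detected. Stimulated Th2 cells had 6.54, 6.53 and 6.83 in WT and 5.73, 6.02 and 6.72 in BAF180-deficient cells. Stimulated Th2 arrays were above the resting Th2 arrays of their genotype without overlap, and they overlapped with the stimulated naïve arrays.

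From 8.72 ± 0.29 (SD, n = 3) in resting naïve WT cells, Bcl6 fell by 2.26 on stimulation (SE 0.32, adjusted p = 7.85e-06, 4.80-fold) to 6.46 ± 0.83 (SD, n = 3). In resting Th2 WT cells it was 5.20 ± 0.27 (SD, n = 3), a difference of -3.52 from resting naïve cells (adjusted p = 3.98e-08, 11.5-fold). Stimulation of Th2 cells raised it by 1.44 (adjusted p = 0.00175) to 6.63 ± 0.17 (SD, n = 3). The BAF180-deficient differences were -1.94 (adjusted p = 5.09e-05), -3.73 (adjusted p = 1.8e-08) and 1.40 (adjusted p = 0.00238). With Z-score normalization the last of these was smaller, at 0.82. The order was resting Th2, then stimulated naïve and stimulated Th2, then resting naïve cells. The middle pair did not differ by the test in WT (0.18, adjusted p = 0.816; -0.29 without stimulated naïve WT replicate C and 0.48 without A) or in BAF180-deficient cells (-0.39, adjusted p = 0.476; -0.67 without stimulated Th2 BAF180-deficient replicate C and -0.18 without A). The lowest step in WT, resting Th2 minus stimulated naïve, was -1.26 (adjusted p = 0.00643). It was not called without stimulated naïve WT replicate A (-0.96, adjusted p = 0.0529) or with only the arrays of the groups compared (adjusted p = 0.0661), and with Z-score normalization it was -0.82. In BAF180-deficient cells it was -1.80 (adjusted p = 0.000333), and -1.15 with Z-score normalization. Ppp1r15a (r = 0.941), Atp6ap2 (r = 0.931) and Cd69 (r = 0.929) were the genes most like Bcl6 over the 24 arrays.

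Rora, which encodes ROR alpha, was high in resting naïve cells and low in the other 3 states (probe ILMN_1243741). Its log2 level in resting naïve cells was 7.72, 7.53 and 7.70 in WT replicates A, B and C and 8.45, 8.25 and 7.32 in BAF180-deficient ones. Stimulated naïve cells had 5.12, 5.27 and 5.46 in WT and 5.99, 5.70 and 5.32 in BAF180-deficient cells. All 6 resting naïve arrays were above the other 18. Resting Th2 cells read 5.60, 5.02 and 5.77 in WT and 5.32, 5.20 and 5.50 in BAF180-deficient cells. Stimulated Th2 cells read 5.08, 5.08 and 5.88 in WT and 5.34, 4.92 and 5.92 in BAF180-deficient cells. The 3 low states overlapped with each other in WT and in BAF180-deficient cells.

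Against the resting naïve WT mean of 7.65 ± 0.10 (SD, n = 3), Rora was lower by -2.37 in stimulated naïve cells (SE 0.29, adjusted p = 1.12e-06, 5.17-fold) and by -2.19 in resting Th2 cells (adjusted p = 5.61e-06, 4.56-fold). In stimulated Th2 WT cells the difference was -2.30 (adjusted p = 1.16e-06). With Z-score normalization these 3 differences were -1.56, -1.39 and -1.44, and all were called. From the BAF180-deficient resting naïve mean of 8.01 ± 0.60 (SD, n = 3) they were -2.34 (adjusted p = 1.39e-06), -2.67 (adjusted p = 4.25e-07) and -2.61 (adjusted p = 2.38e-07). The WT means of the low states were 5.28 ± 0.17 in stimulated naïve, 5.35 ± 0.46 in stimulated Th2 and 5.46 ± 0.39 in resting Th2 cells (SD, n = 3 each), and no pair of them differed by the test, with adjusted p from 0.783 to 0.937. The BAF180-deficient means were 5.67 ± 0.34 in stimulated naïve, 5.39 ± 0.50 in stimulated Th2 and 5.34 ± 0.15 in resting Th2 cells, with adjusted p from 0.529 to 0.945 between them. The myeloid, B cell and dendritic cell marker sums were also highest on the 6 resting naïve arrays where Rora and Bcl6 were high, as was the memory or activation sum (3430 to 5510, against 663 to 2600 elsewhere), whose brightest gene there was Cd69. The NK cell sum was 441 to 716 there and 53.9 to 167 in resting Th2 cells. The part of these cells in the differences was not tested. Ccnd1, Itgae and Dusp1 were most like Rora over the 24 arrays (r = 0.966 each).

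The second Rora probe, ILMN_2742686, was detected on 0 of 24 arrays, with log2 levels of 4.13 to 4.52. It starts at base 80 of the transcript the array lists, whereas the detected probe starts at base 1561 of the same transcript, and labelling began from the poly(A) tail. Why the second probe gave no signal was not tested. Its sequence is shown because it marks the 5′ end of that transcript, for which these arrays gave no signal. The array annotation places it on the plus strand at chr9:68501688-68501737, of a mouse build not given in the sources used here.
ILMN_2742686: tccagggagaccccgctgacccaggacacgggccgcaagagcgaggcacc

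Runx1, the core binding factor subunit that acts from early T cell development on, changed within a narrower range than the members above (probe ILMN_2589107). Resting naïve cells read 6.84, 6.68 and 6.96 on the log2 scale in WT replicates A, B and C and 6.30, 6.64 and 6.62 in BAF180-deficient ones. After stimulation of naïve cells it was 5.86, 5.89 and 6.02 in WT and 6.46, 5.99 and 5.78 in BAF180-deficient cells. The stimulated WT arrays were all below the resting ones, while BAF180-deficient replicate A overlapped with the resting arrays. Resting Th2 cells had 6.81, 6.73 and 7.13 in WT and 6.73, 6.82 and 6.55 in BAF180-deficient cells. Stimulated Th2 cells had 7.03, 6.76 and 6.83 in WT and 7.10, 7.15 and 6.90 in BAF180-deficient cells. In WT cells the resting naïve, resting Th2 and stimulated Th2 arrays overlapped, and the stimulated naïve arrays stood below all of them. The T cell marker sum was lowest in stimulated naïve cells too (7690 to 11100, against 13800 to 20400), and its part was not tested.

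From 6.83 ± 0.14 (SD, n = 3) in resting naïve WT cells, Runx1 fell by 0.90 on stimulation (SE 0.16, adjusted p = 9.69e-05, 1.87-fold) to 5.92 ± 0.09 (SD, n = 3). With Z-score normalization this difference was -0.46 and was called, and by the 4 criteria it would not be (Z-ratio -0.96). Before normalization the mean intensity in naïve WT cells was 90.73 at rest and 86.1 on stimulation. Stimulated naïve WT cells were also below resting Th2 cells (6.89 ± 0.21), with a difference of 0.96 (adjusted p = 0.000133), and below stimulated Th2 cells (6.87 ± 0.14), with 0.95 (adjusted p = 0.000199). The 3 higher WT states did not differ from each other by the test, with adjusted p of 0.814, 0.973 and 0.849. Of these, resting Th2 minus resting naïve cells was 0.06, and 0.29 with Z-score normalization (limma adjusted p = 0.0848).

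The BAF180-deficient means of Runx1 in ascending order were 6.08 ± 0.35 in stimulated naïve, 6.52 ± 0.19 in resting naïve, 6.70 ± 0.14 in resting Th2 and 7.05 ± 0.13 in stimulated Th2 cells (SD, n = 3 each). The difference on stimulation of naïve cells was -0.45 (adjusted p = 0.0294). This call was lost without resting naïve BAF180-deficient replicate B (-0.39, adjusted p = 0.105) or C (-0.40, adjusted p = 0.0913), and without stimulated naïve BAF180-deficient replicate B (-0.40, adjusted p = 0.0942) or C (-0.30, adjusted p = 0.185). It was also lost with Z-score normalization (-0.13, adjusted p = 0.454), with trend and robust moderation (adjusted p = 0.0649) and with only the groups compared (adjusted p = 0.144). Before normalization the mean intensity in naïve BAF180-deficient cells was 81.13 at rest and 96.67 on stimulation, higher rather than lower. The next neighbours, resting naïve and resting Th2 cells, differed by 0.18 (adjusted p = 0.415). This was 0.44 (adjusted p = 0.0116) with Z-score normalization, 0.07 without resting naïve BAF180-deficient replicate A and 0.12 without resting Th2 BAF180-deficient replicate B. The upper pair differed by 0.35 (adjusted p = 0.12; 0.11 with Z-score normalization). Resting Th2 cells were 0.62 above stimulated naïve cells (adjusted p = 0.00715), a call lost without stimulated naïve BAF180-deficient replicate C (0.47, adjusted p = 0.0562) and with only the groups compared (adjusted p = 0.071). Stimulated Th2 cells were 0.53 above resting naïve cells (adjusted p = 0.00967), a call lost without resting naïve BAF180-deficient replicate A (0.42, adjusted p = 0.0598), and 0.97 above stimulated naïve cells (adjusted p = 0.000167). Of these 4 called differences in BAF180-deficient cells, only the 0.97 had a Z-ratio beyond 1.5, as the 4 criteria ask. Trp53inp1 (r = 0.872), Pparg (r = 0.849) and Itgb2 (r = 0.834) were most like Runx1 over the 24 arrays.

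Eomes, the T-box relative of T-bet, was close to background in every state (probe ILMN_1251446). It was detected on 2 of 24 arrays, resting naïve BAF180-deficient replicate B at 4.93 and resting Th2 WT replicate A at 4.66, and its 8 group means lay between 4.19 and 4.64. Its highest group was resting naïve BAF180-deficient cells, with 4.28, 4.93 and 4.70 in replicates A, B and C. Against that group resting Th2 cells differed by -0.45 (adjusted p = 0.0277) and stimulated Th2 cells by -0.44 (adjusted p = 0.0225), in BAF180-deficient cells. The call for resting Th2 cells was lost without resting naïve replicate B (-0.30, adjusted p = 0.169) or C (-0.42, adjusted p = 0.0743), without resting Th2 replicate A (-0.42, adjusted p = 0.0801) or C (-0.43, adjusted p = 0.0754), and with only the groups compared (adjusted p = 0.101). The call for stimulated Th2 cells was lost without resting naïve replicate B (-0.30, adjusted p = 0.149) or C (-0.41, adjusted p = 0.0653), without stimulated Th2 replicate A (-0.43, adjusted p = 0.0575), and with only the groups compared (adjusted p = 0.0859). The probe did not pass a filter of detection on at least 3 arrays. With each undetected array of the Th2 groups raised to the lowest level detected on it, resting naïve BAF180-deficient cells were only 0.06 above resting Th2 cells and -0.03 from stimulated Th2 cells, so no fold is given. Neither difference would be called by the 4 criteria (Z-ratio -0.55 and -0.42). In WT cells the corresponding differences were -0.01 (adjusted p = 0.957) and -0.15 (adjusted p = 0.456), and the test of the genotype difference in the first of them gave -0.43 (limma adjusted p = 1). The genes most like Eomes over the 24 arrays had lower correlations than those of the other members: Rundc3b (r = 0.735), Ccl8 (r = 0.699) and Zfp943 (r = 0.681).

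The factors of the CD4 and CD8 choice gave no signal. Runx3 (probe ILMN_2747141) was detected on 0 of 24 arrays, with levels from 4.16 to 4.47. Zbtb7b (probe ILMN_2441391) was detected on 0 of 24 arrays as well, with levels from 4.18 to 4.76, and this probe starts at base 5 of its transcript. Absence of signal from these probes does not say that the genes were silent, and they entered no test.

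The members' correlations were taken over the 24 arrays, which share their 8 groups and are not 24 independent conditions. The highest correlation between members was that of Rora and Bcl6 (r = 0.83), both highest in resting naïve cells, and the lowest that of Gata3 and Rora (r = -0.64). Gata3 and Tbx21 had r = 0.44, and Tbx21 and Bcl6 had r = -0.07.

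Lists of genes that work with these factors were read in the same comparisons. The Th2 list, cytokines, receptors and regulators of the GATA3 program, had 17 of 18 genes kept. Between resting naïve and resting Th2 WT cells 8 of them were higher and 1 was lower in Th2 cells, with a median difference of 0.60 beside 0.03 over all kept probes, of which 34.4% were called. Ecm1, an extracellular matrix protein of Th2 cells, went from 7.09 ± 0.28 to 12.43 ± 0.34 (SD, n = 3; difference 5.34, adjusted p = 2.32e-14). Il24, an IL-10 family cytokine, was detected on 0 of 3 resting naïve WT arrays and averaged 8.34 ± 1.40 (SD, n = 3) in resting Th2 cells, at least 11.2-fold above the lowest level detectable on the resting naïve arrays (adjusted p = 1.63e-06). Il4, the defining Th2 cytokine, rose by 2.49 (adjusted p = 0.000447). Nfil3, a bZIP regulator, rose by 1.84 (adjusted p = 0.00715), but by 1.17 (adjusted p = 0.0552) without resting naïve WT replicate C, and it was not called with only the groups compared (adjusted p = 0.0664). Stimulation called 8 of the list in naïve WT cells (7 higher, 1 lower, median 0.40) and 10 in Th2 WT cells (8 higher, 2 lower, median 0.75), beside 43.6% and 27.3% of all kept probes, and the first share is near that of all probes. In BAF180-deficient cells the same 3 comparisons called 10, 9 and 10 genes, with medians of 0.50, 0.39 and 0.76, beside 34.7%, 41.6% and 25.8% of all kept probes.

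The Th1 list, of the program of T-bet and Eomes, had 17 of 18 genes kept. In resting Th2 against resting naïve WT cells 3 were higher and 9 lower (34.4% of all kept probes were called), with a median of -1.01. The chemokine gene Ccl4 was at 10.49 ± 1.45 in resting naïve and 6.98 ± 0.27 in resting Th2 cells (SD, n = 3 each; -3.51, adjusted p = 0.000198). Il18r1, a receptor chain for IL-18, differed by -2.65 (adjusted p = 3.22e-08). Ifng, the defining Th1 cytokine, differed by -2.44 (adjusted p = 8.74e-05) and was detected on 1 of 3 resting Th2 arrays, where it was at least 4.75-fold lower by the bound used for Tbx21. With Z-score normalization its difference was -1.50. Stimulation called 13 of the list in naïve WT cells (6 higher, 7 lower, median -0.08) and 11 in Th2 WT cells (9 higher, 2 lower, median 0.71), beside 43.6% and 27.3% of all kept probes. In BAF180-deficient cells the same 3 comparisons called 11, 14 and 11 genes, with medians of -1.39, 0.07 and 0.67, beside 34.7%, 41.6% and 25.8% of all kept probes. NK cells express Ccl4, Il18r1 and Ifng as well, and Il2rb is in both this list and the NK cell markers. The NK cell marker sum was 441 to 716 in resting and 164 to 655 in stimulated naïve cells. In Th2 cells it was 53.9 to 167 at rest and 198 to 688 on stimulation. That rise was seen in Nkg7 (5.96 and 8.04 in WT cells) and Il2rb (5.1 and 5.66), and not in Klrd1 (4.99 and 4.62). Klrb1c, Klrk1 and Klre1 were not detected in Th2 cells. The part of NK cells in these differences was not tested.

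Of the Th17 list 12 of 16 genes were kept, and in resting Th2 against resting naïve WT cells 2 were higher and 4 lower (34.4% of all kept probes were called), with a median of -0.21. Ccr6, the chemokine receptor gene of Th17 cells, differed by -2.65 (adjusted p = 4.43e-07; -1.69 with Z-score normalization) and was detected on 1 of 3 resting Th2 arrays, at least 5.96-fold lower. Il6ra, the IL-6 receptor gene, differed by -2.29 (adjusted p = 7.37e-06), and the AP-1 factor Batf by 1.19 (adjusted p = 0.000661). By the 4 criteria Batf would not be called. Irf4, a partner of BATF that is also in the list of family members and cofactors, was 1.27 higher (adjusted p = 0.0175). This call was lost without resting naïve WT replicate C (0.69, adjusted p = 0.133), resting Th2 WT replicate A (1.12, adjusted p = 0.0718) or C (1.22, adjusted p = 0.0514), and with only the groups compared (adjusted p = 0.105). Stimulation called 8 of the list in naïve WT cells (4 higher, 4 lower) and 7 in Th2 WT cells (4 higher, 3 lower), where 43.6% and 27.3% of all kept probes were called. In BAF180-deficient cells the same 3 comparisons called 8, 9 and 6 genes (34.7%, 41.6% and 25.8% of all kept probes).

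The Tfh list, of the BCL6 program, had 12 of 16 genes kept, and 0 were higher and 3 lower in resting Th2 than in resting naïve WT cells, with a median of -0.26. These 3 of 12 are a smaller share than the 34.4% of all kept probes called there. Cxcr5, the receptor gene that leads cells to follicles, differed by -1.61 (adjusted p = 9.57e-05; -0.84 with Z-score normalization, -1.05 without background correction). The inhibitory receptor gene Btla differed by -1.27 (adjusted p = 6.99e-06; -0.73 with Z-score normalization). Il6st, the shared chain of IL-6 family receptors, differed by -0.76 (adjusted p = 0.0174). That call was lost without resting naïve WT replicate B (-0.54, adjusted p = 0.111) or resting Th2 WT replicate C (-0.59, adjusted p = 0.0978), with Z-score normalization (-0.37, adjusted p = 0.05) and with only the groups compared (adjusted p = 0.0611), and without background correction the difference was -0.45. By the 4 criteria Il6st would not be called either. Stimulation called 5 of the list in naïve WT cells (2 higher, 3 lower) and 6 in Th2 WT cells (5 higher, 1 lower), beside 43.6% and 27.3% of all kept probes, and the first share is near that of all probes. In BAF180-deficient cells the same 3 comparisons called 2, 4 and 6 genes (34.7%, 41.6% and 25.8% of all kept probes).

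For the CD4 and CD8 lineage list, of the ThPOK and RUNX program, 9 of 13 genes were kept. In resting Th2 against resting naïve WT cells 2 of the 9 were lower, a smaller share than the 34.4% of all kept probes called there, with a median of -0.17: Itgae, the integrin chain CD103 (-3.16, adjusted p = 7.18e-08), and the perforin gene Prf1 (-1.17, adjusted p = 0.000314). By the 4 criteria Prf1 would not be called. With the replicate letter as a block, 4 of the 9 were called, beside 5283 of the 14246 kept probes. The share of the list was then the larger. Stimulation called 2 in naïve WT cells, both lower, and 3 in Th2 WT cells (1 higher, 2 lower), where 43.6% and 27.3% of all kept probes were called. In BAF180-deficient cells the 3 comparisons called 3 each (34.7%, 41.6% and 25.8% of all kept probes). Of the list of family members and cofactors 27 of 29 genes were kept, with 3 higher and 5 lower in resting Th2 than in resting naïve WT cells (34.4% of all kept probes were called) and a median of -0.17. Foxp3, the factor of regulatory T cells, went from 8.83 ± 0.34 in resting naïve to 5.89 ± 0.22 in resting Th2 cells (SD, n = 3 each; -2.93, adjusted p = 3.7e-08). Zfpm1, which encodes the GATA cofactor FOG, differed by -1.83 (adjusted p = 7.01e-06), and the repressor gene Bach2 by -1.67 (adjusted p = 0.000163). Stimulation called 10 of this list in naïve WT cells (4 higher, 6 lower) and 9 in Th2 WT cells (4 higher, 5 lower), shares near the 43.6% and 27.3% of all kept probes. In BAF180-deficient cells the 3 comparisons called 9, 10 and 11 (34.7%, 41.6% and 25.8% of all kept probes). In all of these comparisons with resting naïve cells, the myeloid, B cell, dendritic cell and memory or activation marker sums were highest in resting naïve cells too, and the NK cell sum was higher there than in resting Th2 cells. Their part was not tested.

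The second question was whether the levels differ between genotypes within a state. A genotype difference was called by 4 criteria adapted from the study's methods: a Z-ratio (the difference over the SD of the differences of all kept probes) beyond 1.5, a false discovery rate under 0.3, an unadjusted p under 0.05 and a positive mean signal, with p and rate from limma. The methods form the Z-ratio from Z-score-normalized data, whereas here it was formed from the normalized log2 values. On that scale every probe has a positive mean signal, so this criterion removed none. By these criteria 0 of 6 kept members were called in resting naïve cells (0.681% of all probes), 0 in stimulated naïve cells (0.112%), 0 in resting Th2 cells (0.0842%) and 0 in stimulated Th2 cells (0.0913%). In limma 0 of the 6 members had an unadjusted p below 0.05 in any of these 4 states, and the lowest p was 0.0696, 0.192, 0.182 and 0.153 in that order. No alternative setting and no array left out gave a member call in these comparisons. The member differences, BAF180-deficient minus WT, lay between -0.30 and 0.36, between -0.08 and 0.39, between -0.44 and 0.16, and between -0.48 and 0.18, in the same order. Their medians were 0.13, 0.12, -0.13 and -0.03. Leaving out 1 array moved the number of all probes called in resting naïve cells between 84 and 616, the latter without WT replicate C, against 97 with all arrays.

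Gata3 differed between genotypes by 0.28 in resting naïve cells (95% confidence interval -0.10 to 0.65, adjusted p = 0.892) and by -0.01 in stimulated naïve cells (-0.38 to 0.36). The first value was 0.17 without WT replicate C and 0.17 without BAF180-deficient replicate A. It was positive within each of the letters A, B and C, and with the letter as a block it was not called either (adjusted p = 0.783). In Th2 cells its difference was 0.16 at rest (-0.22 to 0.53) and -0.09 on stimulation (-0.47 to 0.28). These intervals, from the fit without the pairing of letters, hold no genotype difference of Gata3 beyond 0.65 in either direction. The study lists Gata3 among genes that BAF180 appeared to repress in naïve cells. That list came from these arrays by the study's own Z-score normalization and statistics. Runx1 in resting naïve cells differed by -0.30 (-0.64 to 0.03, adjusted p = 0.801). This was -0.19 without BAF180-deficient replicate A and -0.20 with Z-score normalization. Runx1 there was the only member in any state whose genotype groups did not overlap. An exact test of 3 against 3 arrays cannot give a p below 0.1. The share of all kept probes without overlap was not counted, so the missing overlap is not read as a result. With all arrays, the largest member difference in resting naïve cells was that of Rora, 0.36 (-0.24 to 0.95, adjusted p = 0.963), where BAF180-deficient replicates A and B were above and replicate C was below the WT arrays. That value was 0.13 without BAF180-deficient replicate A, and then not the largest, and 0.70 without replicate C. Rora also had the largest difference in stimulated naïve cells with all arrays, 0.39 (-0.21 to 0.99, adjusted p = 1). This was 0.23 without BAF180-deficient replicate A, and then below that of Tbx21, and 0.24 with Z-score normalization. In Th2 cells Bcl6 had the largest difference, with -0.44 at rest (-1.11 to 0.23, adjusted p = 1) and -0.48 on stimulation (-1.14 to 0.19, adjusted p = 1). With 1 array left out the first ranged from -0.58 (BAF180-deficient replicate B) to -0.29 (A) and the second from -0.76 (BAF180-deficient replicate C) to -0.26 (A), and with Z-score normalization the first was -0.26. Tbx21 differed by -0.01, 0.23, -0.01 and -0.06 in the 4 states, and its intervals reached from -0.64 to 0.81. Within each of the letters A, B and C, BAF180-deficient cells were lower for Bcl6 in stimulated Th2 and Runx1 in resting naïve cells. They were higher within each letter for Tbx21 in stimulated naïve and Runx1 in stimulated Th2 cells. These comparisons, and that of Gata3 in resting naïve cells, were picked from all members and states for their equal signs. The share of all kept probes with equal signs in the 3 letters was not counted, so the signs are not read as a result. All intervals here are from the fit without that pairing, and with the letter as a block no member was called.

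**Figure D3:**
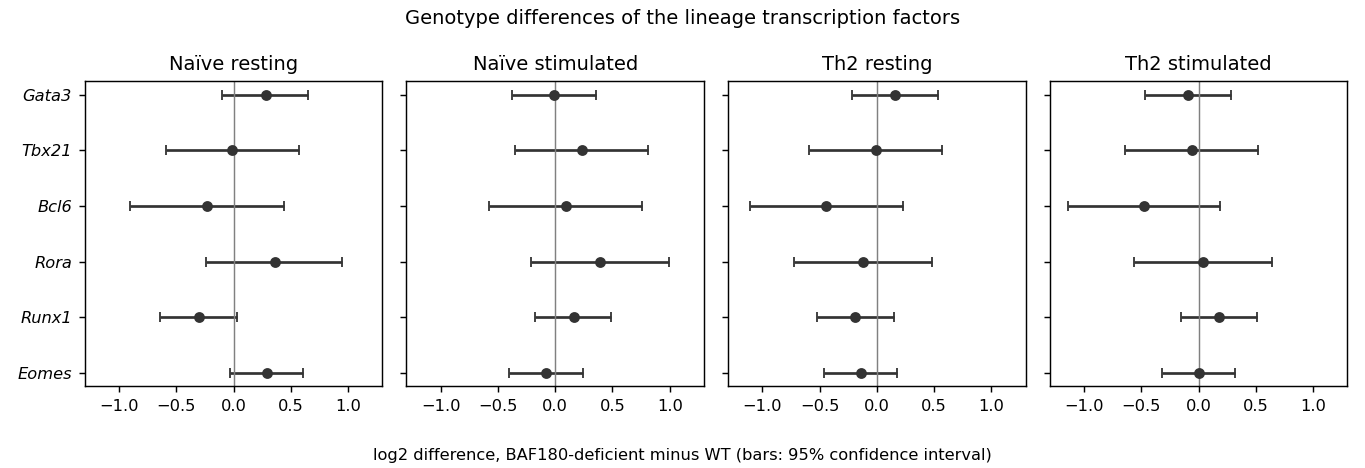
Difference in log2 intensity between BAF180-deficient and WT cells for 6 lineage factors in each cell state, with bars for the 95% confidence interval from limma. Each interval includes 0, and the differences lie between -0.48 and 0.39.

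Whether the genotype differences themselves changed between states was tested as an interaction. For stimulated against resting naïve cells 0 of 6 members were called (0.00702% of all probes), for resting Th2 against resting naïve cells 0 (0.00702%), and for stimulated against resting Th2 cells 0 (0%). In limma 0 members had an unadjusted p below 0.05 in these 3 tests, and the lowest p was 0.0547 (Runx1, 0.46), 0.0586 (Eomes, -0.43) and 0.12 (Runx1, 0.37). Of these, the first Runx1 value was 0.27 without stimulated naïve BAF180-deficient replicate A, and the second was 0.12 with Z-score normalization. For Rora the interaction of genotype with the step from resting naïve to resting Th2 cells was -0.48 (limma adjusted p = 1), and it ranged from -0.82 without resting naïve BAF180-deficient replicate C to -0.26 without replicate A.

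In the lists 0 genes were called between genotypes in any state, with an exception in each of 2 lists, and neither of these had an adjusted p below 0.05. Il18r1, 1 of the 17 kept genes of the Th1 list, was at 5.85 in BAF180-deficient and 4.82 in WT stimulated naïve cells (difference 1.03, adjusted p = 0.291), where 0.112% of all kept probes were called. Tmem176a, a membrane protein and 1 of the 12 kept genes of the Th17 list, was at 6.25 in BAF180-deficient and 5.53 in WT resting naïve cells (difference 0.72, adjusted p = 0.263), where 0.681% were called. Both were named after their values were seen. The Th2 list had medians of -0.01, 0.07, 0.10 and 0.04 in the 4 states, beside medians of -0.001 to 0.002 over all kept probes.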

How the data were processed

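Total RNA of 24 samples was labelled from oligo-dT primed cDNA and hybridized to MouseRef-8 v2 arrays. The authors deposited, per probe and array, an average bead intensity that was not normalized or background subtracted and a detection p-value (GenomeStudio 1.6.0 per the submitters' notes). Here intensities were processed with neqc of limma 3.58.1 in R 4.3.3 (offset 16, background from the detection p-values) over all probes, and a probe was then kept if any array had a detection p no higher than 0.02. A limma model with 8 group means gave all differences. State differences and interactions were called at a Benjamini-Hochberg adjusted p below 0.05. Genotype differences were called by 4 criteria adapted from the study's methods (Z-ratio 1.5 on normalized log2 values, false discovery rate 0.3, p 0.05, mean signal above 0, which every probe met). Probes were given current symbols by Entrez ID (16938), accession (7420), symbol (465), synonym (553) or the table itself (321). Each gene was read by its brightest kept probe. Named were every member, the 3 genes most correlated with each, the 4 largest called differences per list between resting Th2 and resting naïve WT cells, and Pbrm1; some of these genes, and the sum of the naïve T cell markers, are not reported here. After group means were removed, WT and BAF180-deficient arrays of the same letter had correlations over probes, pooled over 4 states, of 0.301 (A), 0.136 (B) and 0.516 (C). A figure legend of the study traces its array data to pairs of WT and BAF180-deficient mice, so a replicate block was run as an alternative. The labels name no animal for an array, and p-values measure the spread between samples. Members and lists were chosen with earlier results of these data known. The code was tested on simulated data.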

Additional observations from a re-analysis of the deposited data

How the results depend on the processing

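For the 44 state differences of members that were called, 614 values under alternatives or with an array left out gave 585 on the same side of the threshold, 29 that lost the call and 0 of opposite sign. With Z-score normalization, uncalled differences changed sign for Gata3 between genotypes in stimulated naïve (0.013) and stimulated Th2 cells (0.061) and for Rora on stimulation of BAF180-deficient Th2 cells (-0.045). Requiring the 4 criteria for state differences left 3 of 5 members called on stimulation of naïve WT cells, and between resting naïve and resting Th2 WT cells it left 4 of 8 genes of the family and cofactor list, 5 of 9 of the Th2, 3 of 6 of the Th17 and 1 of 2 of the CD4 and CD8 lineage list. The number of probes called between genotypes was 97 in resting naïve, 16 in stimulated naïve, 12 in resting Th2 and 13 in stimulated Th2 cells. In that order it was 1, 0, 1 and 0 with only the arrays of the groups compared and 15, 3, 4 and 4 by adjusted p alone. With Z-score normalization it was 32, 5 and 23 in the first 3 states, and with normalization within the state 7 in resting naïve and 62 in resting Th2 cells. In stimulated naïve cells it was 4 with detection on at least 3 arrays, 9 without a filter and 5 without background correction, and in resting Th2 cells 5 without a filter. With the replicate letter as a block, for the pairing of mice, it was 122, 23, 17 and 18, and no member call changed. Leaving out 1 array at a time gave 84 to 616, 3 to 15, 2 to 37 and 5 to 36 probes. The same moved uncalled differences through 0: Gata3 between genotypes from -0.106 to 0.115 in stimulated naïve, -0.006 to 0.268 in resting Th2 and -0.219 to 0.101 in stimulated Th2 cells, Bcl6 from -0.295 to 0.484 and Rora from -0.201 to 0.202 between stimulated Th2 and stimulated naïve WT cells, Rora on stimulation of Th2 cells from -0.382 to 0.040 in WT and -0.212 to 0.289 in BAF180-deficient cells, Runx1 from -0.060 to 0.139 between resting Th2 and resting naïve and -0.095 to 0.104 between stimulated and resting Th2 WT cells, and Tbx21 between resting Th2 and resting naïve cells from -0.389 to 0.082 in WT and -0.339 to 0.114 in BAF180-deficient cells. The cause was not tested. The array chip could not be used as a block, since the headers do not name it, and the second Rora probe gave no value, since it did not pass the filter. Signal over background limits Eomes, Runx3, Zbtb7b and Tbx21 in resting cells, where a lower level could not be read.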
